A study of Mus musculus with 3 samples.

Results

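The sites described here are the TRα1 binding sites at the 3′ ends of protein-coding genes. A site belonged to them when its summit, the base with the highest coverage, lay within 1 kb of the annotated 3′ end of a protein-coding gene, outside every coding segment and more than 1 kb from every start of a protein-coding transcript. Of the 23988 sites of the peak list, 412 met this rule, which is 1.72%. The others comprised 6535 sites within 1 kb of a transcript start (promoter sites), 302 sites in coding exons and 16739 other distal sites, which served as the comparison. The mice were adult C57BL/6J males, 8 weeks old, euthyroid and untreated, with the genotype TRa1 GS-tagged, in which the tag was carried by GABAergic neurons of the striatum after recombination of a floxed construct. The series held 2 ChIP libraries and 1 input library and no untagged animals. All processed values stood in 1 peak list without values for single libraries, so that no error between replicates can be given, the depth of each library is unknown, and intervals and p-values are over sites or genes and cover counting error only. ChIP measures no expression, and the labelled cell type could therefore not be checked against its markers.

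TRα1 is the receptor for thyroid hormone that predominates in brain. It binds DNA mostly as a heterodimer with RXR, and the preferred element is DR4, in which the half-site AGGTCA occurs in tandem, spaced by 4 bp, on which RXR takes the upstream half-site and TR the downstream one. The 3′ end of a gene is where the transcript is cleaved and polyadenylated. Sequence around it can hold the 3′ UTR, the region where transcription terminates, the end of a gene on the opposite strand, or the upstream flank of the next gene.

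DR4 was searched on both strands within 100 bp of the summit, allowing up to 2 mismatches among the 12 bases of both half-sites. The elements of the 2 sites without any mismatch, of strong sites with 1 or 2 mismatches, of the Npas4 site, and of the Reep4 site upstream of Hr are shown. They represent the range of matches found at gene ends. Half-sites are in capitals, each sequence is written 5′ to 3′ on the strand of the element, and the positions (GRCm38) are those of the 16 bases of the element. For sites inside transcribed sequence only the nearest flank is printed.
Jade2, chr11:51812989-51813004, minus strand, outside every gene: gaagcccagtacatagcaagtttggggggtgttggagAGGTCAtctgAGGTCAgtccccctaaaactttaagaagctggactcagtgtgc
Vmn1r24, chr6:57955183-57955198, minus strand, 3′ UTR: ctcacagAGGTCAtatgAGGTCAttggatt
Npas4, chr19:4983561-4983576, minus strand, outside every gene: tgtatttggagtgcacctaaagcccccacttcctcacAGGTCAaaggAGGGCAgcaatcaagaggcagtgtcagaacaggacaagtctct
Asmt, chrX:170677282-170677297, plus strand, intron: tcacccgGGGTCAcgggAGGTCAccggggc
Brix1, chr15:10475555-10475570, minus strand, 3′ UTR: tagccagAGTTCAtttgAGGTCAagcacag
Gins2, chr8:120578204-120578219, plus strand, intron of Gse1: gaggttgAGGTCAgttgGGGTCAgcctggg
Shroom1, chr11:53467226-53467241, minus strand, 3′ UTR: ttgaataAGGTCAcaggAGAACAccgtggg
Tada2a, chr11:84078804-84078819, plus strand, outside every gene: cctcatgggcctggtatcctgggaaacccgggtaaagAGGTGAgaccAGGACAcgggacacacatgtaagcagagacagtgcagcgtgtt
Slc8a2, chr7:16160318-16160333, minus strand, 3′ UTR: ggtggcaGGGTCAcctaAGGTCGcaaggag
Reep4 and Hr, chr14:70549619-70549634, minus strand, outside every gene: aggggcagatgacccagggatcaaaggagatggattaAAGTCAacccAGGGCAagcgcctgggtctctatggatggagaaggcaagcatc
The Asmt site held 3 equally good matches at its summit, of which the nearest to the summit is shown, and each of the other sites shown with DR4 at the summit held 1. The element labelled Reep4 and Hr lay inside the peak at the end of Reep4, upstream of Hr, but more than 100 bp from the summit. The element in the peak at the end of Hr itself is not shown. Counted from 1 at the 5′ end, the Reep4 and Hr element departed from the repeat by G2A and T14G, and the Npas4 element by T14G. The Shroom1 element departed by G13A and T14A, so that it had an intact upstream half-site only.

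The strongest sites at gene ends lay downstream of Axl and Reep4. The fold enrichment, the ratio of the fragment pileup to the local background as given by the authors, reached 77.8 at Axl, which encodes a receptor tyrosine kinase, with a pileup of 221 fragments 974 bp past the gene end. At Reep4, which encodes a protein that shapes the endoplasmic reticulum, it was 71.8 with a pileup of 192, 556 bp past the end. The Reep4 site (chr14:70549074-70549861) was also 2723 bp upstream of the start of Hr, a nuclear corepressor and classical thyroid hormone target gene, and Hr was the gene with the nearest start. Likewise, the Axl site lay 1542 bp upstream of the start of Hnrnpul1, which is on the same strand. From position alone, a site behind one gene and a site ahead of the next cannot be told apart in these cases.

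Hr had a second site of this kind at its own 3′ end. It lay 919 bp past the end of the gene and had a fold enrichment of 24.5 and a pileup of 65. Between both ends, the Hr promoter held a further site, 98 bp upstream of the start, with a fold enrichment of 21.6 and a pileup of 57. The 2 sites at gene ends had no DR4 within 100 bp of the summit but 1 elsewhere in the peak, whereas the promoter site had a match with 2 mismatches at the summit.

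The next strongest sites, by fold enrichment, were in transcribed sequence as well as outside it. Cx3cl1, which encodes the neuronal chemokine fractalkine, had a fold enrichment of 52.1 in its 3′ UTR, 428 bp before the end, and another site of 12.3 at 508 bp past the end. Only the weaker of these 2 held DR4 at the summit. Shroom1, which encodes a regulator of the actin cytoskeleton, had a site of 43.9 in its 3′ UTR, the strongest with DR4. Pcp4l1, a small paralog of the calmodulin regulator Pcp4, had a site of 43.5 at 367 bp past the end. Sites with lower values followed at Med8, a Mediator subunit (39.2), at the kinase gene Cdk10 (35.3), at Spata18 (32.4), at Ppp1r15a, a regulator of translation under stress (31.8), and at the deubiquitinase gene Otud6b (30.4). The Cdk10 site lay 564 bp past the annotated gene end inside the convergent gene Spata2l, and the Ppp1r15a site in an intron of the overlapping gene Tulp2. Of the 10 strongest sites, 1 held DR4 at the summit.

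**Figure D1:**
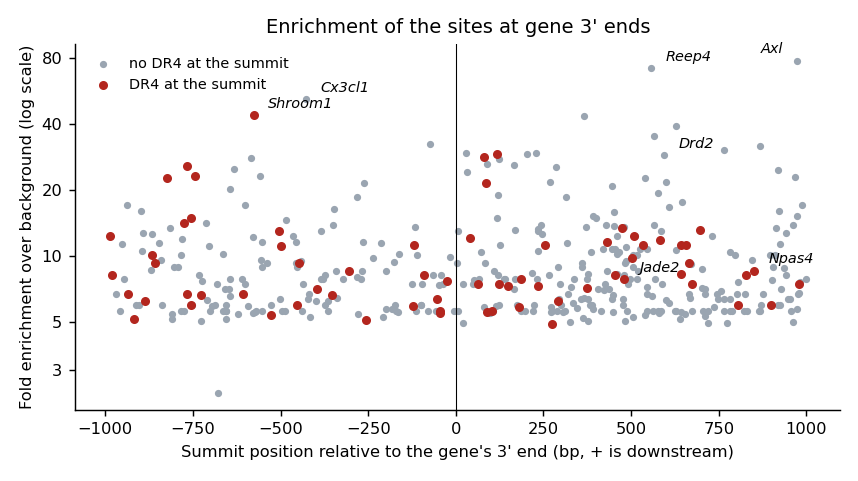
Fold enrichment (log scale) of the 412 sites against the position of the summit relative to the 3′ end of the gene in bp, with sites holding DR4 at the summit in red. Most values lie between 5 and 20 on both sides of the end, the highest are those at Axl and Reep4 downstream, and DR4 sites occur over the whole range of positions.

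Most sites at gene ends were weak, as in the list as a whole. Their fold enrichment ranged from 2.36 to 77.8 with a median of 7.81 and quartiles of 5.95 and 11.2. The median was 7.13 at other distal sites and 7.72 at promoter sites. The pileup ranged from 14 to 221 with a median of 21. The lowest fold enrichment belonged to the 3′ UTR of Lars2, a mitochondrial leucyl-tRNA synthetase gene, where a pileup of 126 stood over a local background of 52.8 fragments, the highest background among the 412 sites. Above the median of the whole list, 7.40, were 227 sites or 55.1% (95% Wilson interval, 50.3 to 59.8), against 48.4% (47.7 to 49.2) of the other distal sites and 49.9% of all sites. This corresponds to an odds ratio of 1.31 (p = 0.00814, two-sided Fisher's exact test). With a score of at least 200 the direction turned, with an odds ratio of 0.694 against the median of that shorter list (Fisher's exact test, p = 0.0438, 134 sites), so that no general difference in strength can be given. Over 5 equal parts of the list ranked by fold enrichment, from weakest to strongest, the sites numbered 84, 81, 77, 93 and 77.

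Sites were denser around gene ends than in other distal sequence, and denser after the end than before it. Within 1 kb of gene ends, 35.1 Mb of sequence could hold a site under the rule, and the density was 11.7 sites per Mb (95% exact Poisson interval, 10.6 to 12.9). Other distal sequence held 6.73 sites per Mb (6.62 to 6.83), a ratio of 1.74. The density was 9.85 per Mb (8.38 to 11.5) before the end and 13.4 per Mb (11.8 to 15.1) after it. In bins of 200 bp it was highest at 400 to 600 bp past the end, with 69 sites or 18.2 per Mb (14.2 to 23.1). Directly before the end, from 200 bp upstream, there were 31 sites or 8.62 per Mb (5.86 to 12.2). The bins in the last 1 kb before the end held 8.16 to 13.2 per Mb, and those 1 to 5 kb before it 4.60 to 11.9. Past the end, the bins in the first 1 kb held 11.3 to 18.2 per Mb, and those at 1 to 5 kb 6.56 to 13.3. The ratio of 1.74 is against all other distal sequence, and a difference from these flanks was not tested.

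**Figure D2:**
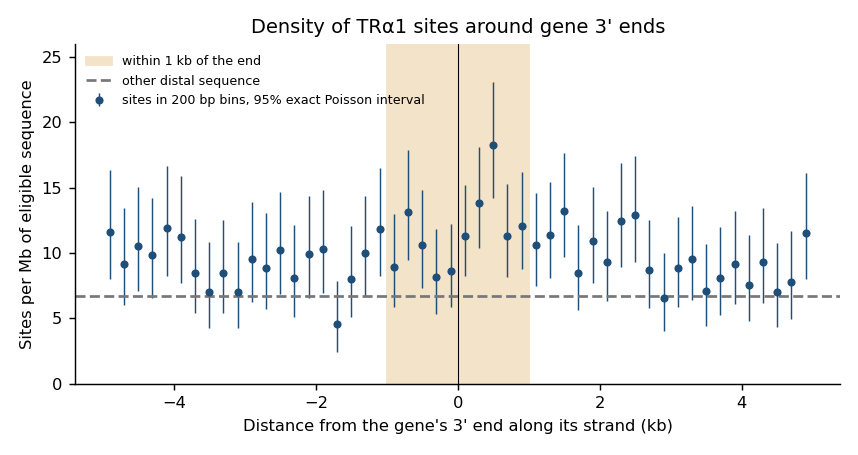
Sites per Mb of eligible sequence in bins of 200 bp against the distance from the 3′ end of the gene along its strand in kb, with 95% exact Poisson intervals, and the density in other distal sequence as a dashed line. The bin from 400 to 600 bp past the end is the highest at 18.2 per Mb, and the bins outside 1 kb also lie mostly above the dashed line.

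The density in other distal sequence fell with the distance to the nearest transcript start, and the ratio between gene ends and other distal sequence was therefore also computed at equal distance. At 1 to 5 kb from a start, gene ends held 186 sites or 12.8 per Mb, against 11.3 per Mb in other distal sequence, a ratio of 1.13 (two-sided exact binomial test, p = 0.119, adjusted p = 0.119 over 4 distance classes). At 5 to 10 kb the values were 12.01 and 9.23 per Mb (ratio 1.30, exact binomial test, adjusted p = 0.0281), and at 10 to 30 kb they were 10.4 and 8.72 per Mb (ratio 1.19, adjusted p = 0.119). Beyond 30 kb, where 38 sites lay at gene ends, they were 10.2 and 5.05 per Mb, a ratio of 2.03 (exact binomial test, adjusted p = 2.91e-04). In the 3 classes up to 30 kb the ratio was thus below the pooled 1.74, and beyond 30 kb, where other distal sequence includes regions without genes, it was above. The part of distance in the pooled ratio was not tested. The density after the end was above that before the end in each of the 4 classes, with 14.6 against 10.5 per Mb at 1 to 5 kb, 12.9 against 11.0 at 5 to 10 kb, 11.6 against 9.07 at 10 to 30 kb, and 13.5 against 6.71 beyond 30 kb. The difference between sides was not tested within the classes. At 1 to 5 kb, the 10.5 per Mb before the end lay below the 11.3 per Mb of other distal sequence. In the other classes the density before the end lay above that of other distal sequence.

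**Figure D3:**
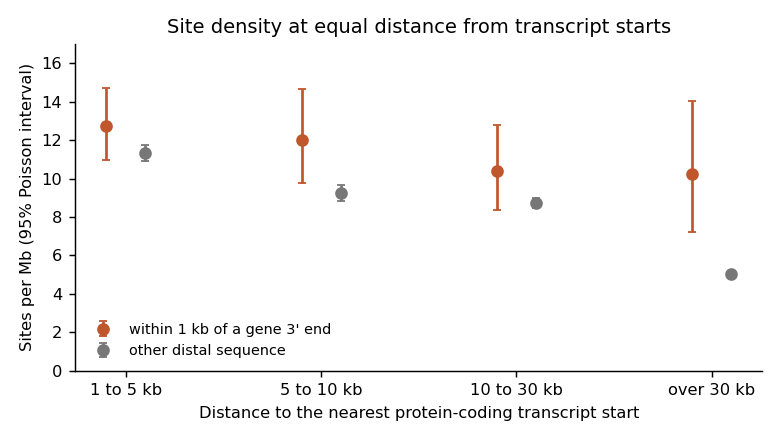
Sites per Mb, with 95% exact Poisson intervals, within 1 kb of gene 3′ ends and in other distal sequence, in 4 classes of distance to the nearest protein-coding transcript start. Both densities fall with distance and lie close together up to 30 kb (ratios of 1.13 to 1.30), while beyond 30 kb they are 10.2 and 5.05 per Mb.

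Downstream of the gene end lay 252 of the 412 sites, or 61.2% (56.4 to 65.7), where 53.7% of the eligible sequence was downstream (two-sided exact binomial test, p = 0.00255). The excess was not found when the ends of all protein-coding transcripts or of genes of any type were used, with ratios of observed to available share of 1.05 (p = 0.141) and 0.9995 (p = 1) in place of 1.14 (exact binomial tests). Transcripts of a gene can end before its annotated 3′ end, and these definitions add such internal ends or ends of noncoding genes. The median distance from the end was 497 bp, and 37 sites lay within 100 bp. At 900 to 1000 bp from the end, just inside the limit, 39 sites had a median fold enrichment of 7.81 and 5 had DR4. At 1000 to 1100 bp, just outside, 42 sites had a median of 7.61 and 11 had DR4.

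Within 100 bp of the end, the strongest sites were those at Spata18, a mitochondrial quality control gene, 75 bp before the end, and Teddm3, 29 bp past the end, with fold enrichments of 32.4 and 29.4. Tada2a, an adaptor of histone acetyltransferase complexes, had a site of 28.2 at 81 bp past the end, Nfatc2ip one of 26.3 at 88 bp, and the tight junction gene Cldn15 one of 24.2 at 33 bp. Of these 5 sites, that at Tada2a held DR4 at the summit.

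By annotation, 198 sites (48.1%) lay outside every gene, 150 (36.4%) in a 3′ UTR, 48 (11.7%) in an intron of a protein-coding gene, 12 in a noncoding gene and 4 in another exon of a protein-coding gene. The median fold enrichment was 7.81 in 3′ UTRs and 7.79 outside genes. Sites in 3′ UTRs held DR4 in 20.0% and the remaining sites in 14.5%, a difference of 5.50 percentage points (95% interval, -1.88 to 13.5) that did not pass the test (Fisher's exact test, p = 0.168).

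Some ends were shared by genes that converge. Within 1 kb of the ends of at least 2 protein-coding genes were 34 sites, or 8.25% (5.97 to 11.3), while 4.52% of the eligible sequence was so placed, a ratio of 1.83 (two-sided exact binomial test, p = 7.97e-04). In 32 of them the other gene was on the opposite strand, tail to tail. An example, named after its value was seen, was Shank1, a postsynaptic scaffold gene, with 1700008O03Rik (fold enrichment 13.5). With a score of at least 200 the ratio was 1.49 and did not pass the test (9 of 134 sites, exact binomial test, p = 0.209).

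A next gene stood close to other sites. In 95 of the 412 sites (23.1%), the start of another gene followed within 10 kb, with the site upstream of it, and in 78 of these 95 the next gene was on the same strand. For 207 sites (50.2%) the gene with the nearest start was the gene at whose end the site lay. Within 30 kb, the distance at which the study assigned sites to genes, 185 sites had the start of their own gene and that of another gene, 60 had their own only, 77 had another only, and 90 had none. The median distance to the start of the own gene was 22.0 kb. None of these counts was made for other distal sites or for eligible sequence. They therefore describe where the sites lay and show no excess.

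The share of sites with DR4 at gene ends was close to that at other distal sites, and no difference was detectable. It was found at the summit of 68 of the 412 sites, or 16.5% (13.2 to 20.4), against 15.3% (14.7 to 15.8) of other distal sites and 13.1% of all sites. The odds ratio came to 1.10 (p = 0.489, two-sided Fisher's exact test), and the difference was 1.23 percentage points with an interval of -2.09 to 5.16. Promoter sites held DR4 in 7.54% and coding exon sites in 11.6%. With GC content and fold enrichment in a logistic model over sites, the odds ratio was 1.13, with a 95% interval of 0.864 to 1.47. Over the whole peak, DR4 was found in 86 sites, or 20.9%, against 19.5% of other distal sites (odds ratio 1.09, Fisher's exact test, p = 0.489) and 17.3% of all sites.

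Against neighbouring sequence the elements were concentrated at the summits. Equally wide windows located 5 kb to the right held DR4 in 8 of 412 cases, or 1.94% (0.987 to 3.78), a ratio of 8.50. With windows 5 kb to the left the ratio was 4 (exact McNemar test, p = 5.20e-09). With windows 5 kb to the right, DR4 was in the summit window only in 67 pairs and in the control window only in 7 (two-sided exact McNemar test, p = 2.12e-13). Of the 18 sites with at most 1 mismatch, none had such a match in the control window, and no other control window did, so the ratio was at least 6.00 against a floor of 3 windows over the group (exact McNemar test, p = 7.63e-06). The concentration was seen on both sides of the gene end. Before the end, DR4 was present in 33 of 160 summits (20.6%) and 2 control windows (p = 3.67e-08), and after the end in 35 of 252 (13.9%) and 6 control windows (exact McNemar tests, p = 2.43e-06). The difference between sides, -6.74 percentage points (-14.6 to 0.607), did not pass Fisher's exact test (p = 0.0780, adjusted p = 0.507 over 13 comparisons among these sites). None of the 13 passed after adjustment, while the smallest p, 0.0346 before adjustment, belonged to the DR4 share by GC content (12.5% above and 20.3% at or below the median of the list).

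**Figure D4:**
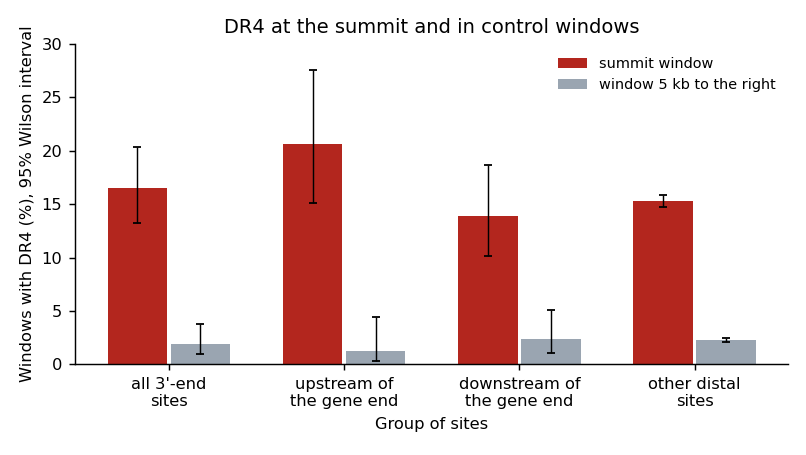
Share of windows with DR4, in percent with 95% Wilson intervals, at the summit and 5 kb to its right, for all 412 sites, those upstream and downstream of the gene end, and other distal sites. The summit windows lie at 16.5, 20.6, 13.9 and 15.3%, and the control windows between 1.25 and 2.38%.

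The 68 elements lay close to the summit, at a median distance of 28 bp, and 53 of them within 50 bp. They had no preferred strand, with 33 of 68 on the strand of the gene (two-sided exact binomial test, p = 0.904). In 2 elements both half-sites were intact, 16 had 1 mismatch and 50 had 2. Of the 16, 9 had the mismatch in the upstream half-site, which is the RXR side. Of the 50, 30 had 1 mismatch in each half-site, and 10 each had both on the upstream or both on the downstream side.

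The elements without mismatch were at sites of ordinary strength. Jade2, which encodes a PHD finger protein of a histone acetyltransferase complex, had a site 481 bp past the end with a fold enrichment of 7.81 and a pileup of 20. At Vmn1r24, a vomeronasal receptor gene of a large family with similar copies, where the assignment of reads is uncertain, the site lay 453 bp before the end, with a fold enrichment of 5.95 and a pileup of 15. The strongest sites with DR4 after Shroom1 were those at the phosphatase gene Dusp13 (29.0), Tada2a (28.2), Slc8a2, a sodium-calcium exchanger of neurons (25.7), Asmt, the last enzyme of melatonin synthesis (23.1), and the intermediate filament gene Des (22.7). Lower values were found at the kinase gene Stk32a (21.6), at Polr3b, a subunit of RNA polymerase III (14.9), at Brix1, a ribosome assembly gene (14.1), and at the replication gene Gins2 (13.4). Asmt lies in the pseudoautosomal region, so that reads of the X and Y copies cannot be told apart. Asmt, Stk32a, Brix1 and Gins2 had 1 mismatch, as had weaker sites at Fxyd6, a regulator of the sodium pump (10.04), Npas4 (8.55), the transcription factor gene Atf2 (8.25), the neuronal gene Tagln3 (8.14), Ppil2 (7.66) and Map3k12, a kinase of axonal injury signalling (6.61).

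Among the other spacings of the half-site, DR3 stood out. Direct repeats of AGGTCA with 0 to 8 bp between them, the everted repeat ER6 and the inverted repeat IR0 were counted with the same mismatch limit on both strands. DR3, the element preferred by the vitamin D receptor, was found in 24 of 412 sites, or 5.83% (3.95 to 8.52), against 2.90% (2.65 to 3.16) of other distal sites, 2.16% of promoter sites and 3.97% of coding exon sites. The odds ratio came to 2.07 (adjusted p = 0.0188 over 11 arrangements, two-sided Fisher's exact test). Windows 5 kb to the right held DR3 in 8 cases (two-sided exact McNemar test, p = 0.00700). In 9 of the 24 sites DR4 was also present, and among sites without DR4 the shares were 4.36% and 2.40% (odds ratio 1.86, Fisher's exact test, p = 0.0311). None of the other 10 arrangements passed the adjusted test, DR4 included.

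Motifs of other factors were about as frequent as at other distal sites. AP-1 (TGACTCA) was found in 48 sites, or 11.7% (8.90 to 15.1), against 10.5%, a difference of 1.196 percentage points (-1.59 to 4.68). The E-box CAGCTG was present in 15.3% against 13.4%, and the GC box GGGCGG in 8.74% against 7.14% of other distal and 47.1% of promoter sites. Of 13 motifs, searched without mismatches on both strands, none passed the adjusted test, and the smallest p before adjustment was 0.0446, for the homeodomain core TAATTA (3.64% against 5.98%, Fisher's exact test, adjusted p = 0.580). CRE (TGACGTCA), NRF1 and NFI were found in 0 of 412 sites, which allows a share of up to 0.728%, or 3 counts of 412. At other distal sites their shares were 0.251, 0.0538 and 0.00597%, all below this limit.

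The sites also differed from other distal sites in base composition and in their neighbours. GC content in the 201 bp around the summit was above the median of the list in 200 sites, or 48.5% (43.8 to 53.4), against 32.8% (32.1 to 33.5) of other distal sites (Fisher's exact test, adjusted p = 4.98e-10 over 7 properties). The medians were 50.7% and 47.8%. Windows 5 kb to the right had medians of 47.8% and 44.8%, so that sequence around gene ends was richer in GC also away from the sites. Another site lay within 5 kb of 135 sites, or 32.8% (28.4 to 37.4), against 24.3% (23.6 to 24.9) of other distal sites (Fisher's exact test, adjusted p = 4.32e-04). At promoter and coding exon sites this share was 31.6% and 39.7%, and the share with GC content above the median was 86.1% and 72.5%. Distance to transcript starts was not taken into account in either comparison. A repeat at the summit (9.22% against 11.98%), a width of at least 1 kb (3.64% against 2.37%) and the start of a noncoding transcript within 1 kb (4.37% against 4.66%) did not pass the test. The last of these differed by -0.291 percentage points, with an interval of -1.91 to 2.16.

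Sites were found at the ends of 451 of the 21650 protein-coding genes whose end could hold one, or 2.08%. One site, at Diaph1, was within 1 kb of the ends of 21 protocadherin genes that share their last exon, and counts for each of them. A promoter site was present at 190 of the 451 genes, or 42.1% (37.7 to 46.7), against 5720 of the 21199 other genes, or 27.0% (26.4 to 27.6), and 27.3% of all genes. The odds ratio came to 1.97 (p = 7.52e-12, two-sided Fisher's exact test over genes). When only the gene with the nearest end was counted for each site, it was 2.09, with 173 of 397 genes. It was 1.57 for genes of at least 10 kb (43.8% against 33.1%) and 3.31 for shorter genes (38.0% against 15.6%). For sites more than 10 kb from every start of their gene, 75 of 171 genes, or 43.9%, had a promoter site. Against 27.2% of all remaining genes of any length, the odds ratio came to 2.09 (p = 3.76e-06, Fisher's exact test). This comparison was not matched for gene length, and the share among other genes of at least 10 kb was 33.1%, as given above. DR4 at the 3′ end was found in 15.5% of the sites whose gene had a promoter site and in 17.3% of the others, a difference of -1.85 percentage points with an interval of -8.91 to 5.54.

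**Figure D5:**
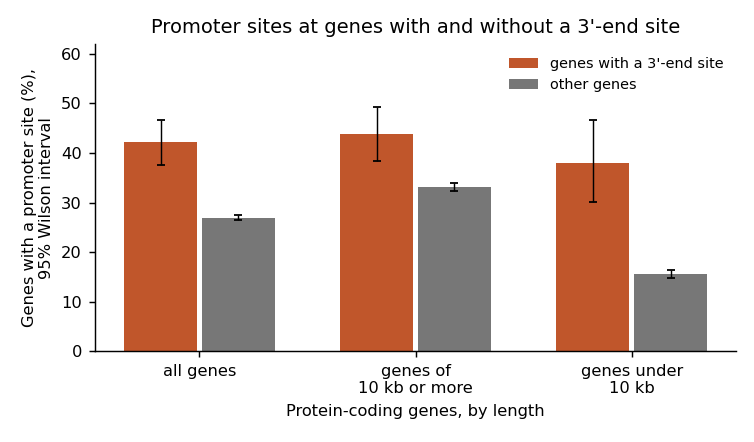
Share of protein-coding genes with a promoter site, in percent with 95% Wilson intervals, for genes with and without a 3′-end site, over all genes and in 2 classes of gene length. The shares are 42.1 and 27.0% over all genes, 43.8 and 33.1% for genes of at least 10 kb, and 38.0 and 15.6% for shorter genes.

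The highest number of sites at 1 gene end was 2, and 16 genes reached it. Besides Cx3cl1, those with the strongest sites were Otud6b, with fold enrichments of 30.4 past the end and 11.4 in the 3′ UTR, Abhd11 (21.7 and 7.43), Grik5, a kainate receptor subunit gene (15.2 and 5.95), Krt17 (13.8 and 5.58) and 1700008O03Rik, whose own end had a site of 13.0 and which shared the site of 13.5 with Shank1. In the first 4 of these the stronger site was the one past the end. The stronger Abhd11 site lay 14 bp from the start of the noncoding transcript Abhd11os, and the weaker one 650 bp from it.

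The lists written for this tissue and hormone held 7 genes with such a site. Of 25 genes listed for striatal projection neurons, not all of them particular to these cells, there were 2, or 8%, beside 2.08% over all genes. Drd2, the dopamine receptor of indirect pathway neurons, had a site 594 bp past the end with a fold enrichment of 28.9 and a pileup of 91, the strongest of the 5 sites in the gene or within 5 kb of it, whose other values were 20.8, 8.55, 7.81 and 7.81. A second site followed 658 bp further, beyond the limit of 1 kb. The promoter of Drd2 held no site. Slc32a1, the vesicular GABA transporter of inhibitory neurons, had a site of 8.93 at 905 bp past the end, close to the 9.30 of each of 2 sites near its start.

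Of 30 genes of thyroid hormone action, Hr and Ncoa3 had a site, which is 6.67% beside 2.08% over all genes. That of Ncoa3, a coactivator of nuclear receptors, was among the weakest, with a fold enrichment of 5.58 at 5 bp before the end, while its promoter site had 50.0. The end of Sulf2, on the opposite strand, also lay within 1 kb of this site at the Ncoa3 end. Of 20 immediate early genes, 3 had a site, or 15%, beside the same 2.08%. Jund had one of 13.1 at 169 bp past the end and 1836 bp from its own start, above the 7.73 at that start. The start of the antisense transcript Gm11175 lay 705 bp from this site. Npas4, an activity-dependent transcription factor gene of neurons, had one of 8.55 with the DR4 shown above, 851 bp past the end, and no other site within 5 kb. Homer1, a postsynaptic scaffold gene with an activity-induced short form, had one of 5.85 at 80 bp past the end, below the 17.2 of an intronic site.

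Of 20 presynaptic and pan-neuronal genes, Tubb3, the neuronal tubulin gene, had a site of 26.03 at 165 bp past the end, 1347 bp upstream of the start of Def8. No site was found at the ends of the listed astrocyte, oligodendrocyte, microglia, endothelial and hepatocyte genes (0 of 20 each), nor of 19 housekeeping and 18 ribosomal protein genes whose ends could hold one. Over all genes the share was 2.08%, and the counts of these short lists were not tested.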

How the data were processed

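TRα1 ChIP-seq of adult mouse striatum comprised 2 ChIP libraries and 1 input library. The authors aligned the reads to GRCm38 (mm10) with Bowtie (Bowtie2 2.3.2.2 in the submitters' processing notes), called peaks with MACS 2.1.1.20160309.0 and removed peaks with a score below 60. Pooling of the ChIP libraries and treatment of duplicates are not given in the sources used here, and the driver of the recombination in GABAergic neurons is not given either. The deposited pileup is the coverage by ChIP fragments at the summit, and the fold enrichment of the authors is its ratio to the local background with 1 added to each. The deposited −log10 q value and the score, which is 10 times that value, were used to filter sites. Pileup, fold and score of a site cannot be split by library.

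Gene ends, coding segments and transcript starts were those of GENCODE vM21 on GRCm38, and sequences were read from the RefSeq copy of GRCm38 after comparing chromosome lengths. The 3′ end is that of the gene record, and a site near several ends was named after the nearest. Site types were exclusive. Eligible sequence was every sequenced base that could hold a summit under the rule. Tests were two-sided and over sites or genes, which are not replicates, and adjusted p-values follow Benjamini and Hochberg at 0.05. Sites within 5 kb of each other are not independent. The members, the gene lists, the rule for named genes and the tests were chosen with earlier results of these data known. The tests by distance to transcript starts, of shared gene ends, of the strand of elements and of DR3 against control windows were chosen after the values were seen. The promoter comparisons by nearest gene end and at sites more than 10 kb from every start of their gene were also chosen later. Named were the genes at the 10 strongest sites, at the 10 strongest with DR4, at those with 0 mismatches and the 10 strongest with 1, at the 5 strongest within 100 bp of the end, the 6 genes with most sites, and the members of the striatal, thyroid hormone and immediate early lists. Tests were run with scipy 1.17.1 and statsmodels 0.14.6 under Python 3.11.15, tables were handled with pandas 2.3.3 and numpy 2.4.6, plots were drawn with matplotlib 3.10.9, and the scripts were tested on simulated data.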

Additional observations from a re-analysis of the deposited data

How the results depend on the processing

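The number of sites at gene ends depended on its definition. It was 208 with 500 bp and 731 with 2 kb on each side, 637 with the ends of all protein-coding transcripts, 936 with the ends of genes of any type, and 134 with a score of at least 200, against 412. The odds ratio of DR4 against other distal sites, 1.10, passed the test in none of 14 alternatives, and turned to 0.981 with the ends of all protein-coding transcripts and to 0.949 with a score of at least 200. The odds ratio of a fold enrichment above the median, 1.31, was 1.07 with 2 kb and 1.05 with genes of any type, neither past the test, and 0.694 with a score of at least 200. The ratio of the downstream share was 1.05 with the ends of all protein-coding transcripts and 0.9995 with genes of any type, neither past the test. The ratio of DR4 to control windows was 2.98 (at most 3 mismatches) to 12 (score of at least 200) in 5 alternatives, with 4 for windows 5 kb to the left and the odds ratio of promoter sites 1.57 to 3.31 in 5, and all of these passed. For promoter sites, the alternatives with only the nearest gene end and with sites more than 10 kb from every start were chosen later. DR3 passed without adjustment in 4 alternatives, chosen after seeing the data, with odds ratios of 1.30 (at most 3 mismatches) to 3.64 (at most 1, in 4 sites). The alternatives with a score of at least 200 for GC content and neighbouring sites, also chosen later, gave 1.82 and 1.64, and that for shared gene ends gave 1.49, past the test no longer. No paired analysis was possible because the list holds no values for single libraries, and for the same reason no replicate could be left out. The cause of these changes was not tested.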
